A study of Mus musculus with 17 samples.

Results

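RNA of periprostatic fat, the adipose depot that lies around the prostate, was compared between 6 male C57BL/6J mice fed a high-fat diet (HFD, 60 kcal% fat) and 6 fed a low-fat diet (LFD, 10 kcal% fat), both groups eating without restriction. These 12 arrays were chosen by their titles from the 17 of the series. The diets began at 6 weeks of age and ran for 12 and then 7 more weeks, and the fat was harvested and frozen at 25 weeks. The other 5 mice were moved after 12 weeks on the high-fat diet to 70% of the HFD group's intake. They enter below through the shared estimate of the spread, the choice of probe set for each gene, the array medians and some alternatives. No difference from them is reported. No mouse carried a transgene or deletion per the labels, and each array (Affymetrix Mouse Gene 2.0 ST) held the RNA of 1 mouse. The labels number the mice singly within each group, so each value is that of a separate animal.

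The description is of stress response genes and of gene families outside the usual macrophage, lipogenesis and matrix genes. A cell under stress answers through a small number of transcriptional programmes. Unfolded protein in the endoplasmic reticulum (ER) activates the sensors IRE1, PERK and ATF6, amino acid shortage activates GCN2, and PERK and GCN2 both raise translation of the factor ATF4 in what is called the integrated stress response. Oxidants and electrophiles release NRF2 from KEAP1, unfolded cytosolic protein frees HSF1, DNA damage stabilises p53, and low oxygen stabilises HIF1. In obese adipose tissue, fat cells enlarge, some die and macrophages surround them, and ER stress and oxidative stress have been described in both cell types.

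The promoters of the ER and integrated stress genes are shown first, because ATF6 and ATF4 act at short DNA elements that can be read directly. The ER stress element (letters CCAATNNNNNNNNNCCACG, bound by NF-Y and ATF6) and the C/EBP-ATF response element (letters TGATGNAA, bound by ATF4) were sought on both strands from 250 bases before to 50 bases after each gene's start, in RefSeq promoters of build GRCm38.p6. The motifs do not overlap each other, and 0 of 16990 measured genes with a promoter held both. The ER stress element was present in 9 of the 31 stress response genes with a promoter (29.0%), against 29 of 16990 measured genes (0.171%). The list was picked to hold known genes of this response, and the 29 include the 9. The higher share is therefore a description and not a test. The match nearest the start of each of the 9 genes is shown, in 43 bases with the element in capitals (a match on the opposite strand reads CGTGG first):
Calr: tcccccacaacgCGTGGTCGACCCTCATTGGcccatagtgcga
Canx: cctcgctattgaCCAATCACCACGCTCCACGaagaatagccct
Creld2: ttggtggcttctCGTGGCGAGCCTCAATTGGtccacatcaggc
Dnajc3: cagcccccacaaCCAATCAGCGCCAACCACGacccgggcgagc
Ero1b: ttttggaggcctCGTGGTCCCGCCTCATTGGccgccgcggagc
Hsp90b1: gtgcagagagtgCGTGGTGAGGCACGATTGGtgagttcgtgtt
Hspa5: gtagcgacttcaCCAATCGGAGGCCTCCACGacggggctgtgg
Pdia6: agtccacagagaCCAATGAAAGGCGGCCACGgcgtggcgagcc
Syvn1: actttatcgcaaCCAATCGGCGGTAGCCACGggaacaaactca
They lie at chr8:84847063-84847105 (minus strand), chr11:50325788-50325830 (minus), chr15:88819508-88819550 (plus), chr14:118937815-118937857 (plus), chr13:12565670-12565712 (plus), chr10:86705521-86705563 (minus), chr2:34772013-34772055 (plus), chr12:17266479-17266521 (plus) and chr19:6046520-6046562 (plus). All 9 are upstream of the annotated start. The promoter of Hsp90b1 holds 2 matches, of which 1 is shown.

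The ATF4 element was present in 6 of those 31 promoters (19.4%) and in 4 of 11 promoters of cytosolic aminoacyl-tRNA synthetases (36.4%), against 666 of 16990 measured genes (3.92%). Here too the lists were picked and their matches are among the 666, so the shares are no test. Trib3, Iars and Yars hold no match wholly upstream of the start, and their matches are not printed. The 7 matches that lie upstream of the start are these, again with the element in capitals (a match on the opposite strand begins TTGCATCA or TTTCATCA):
Asns: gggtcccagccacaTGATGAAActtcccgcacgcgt
Atf3: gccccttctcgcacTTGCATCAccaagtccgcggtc
Chac1: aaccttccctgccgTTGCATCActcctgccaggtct
Herpud1: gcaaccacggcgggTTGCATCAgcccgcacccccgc
Nupr1: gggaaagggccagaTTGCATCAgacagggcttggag
Gars: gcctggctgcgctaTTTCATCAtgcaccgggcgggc
Tars: ggccaggagtcccgTTGCATCAgctggtt
They lie at chr6:7693211-7693246 (minus strand), chr1:191183422-191183457 (minus), chr2:119351035-119351070 (plus), chr8:94386303-94386338 (plus), chr7:126625559-126625594 (minus), chr6:55037957-55037992 (plus) and chr15:11399659-11399687 (minus). A match describes the letters and not a bound factor.

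Over all 22180 genes, 3663 were higher in HFD mice (16.5%) and 2502 were lower (11.3%) at an adjusted p under 0.05, and 14.3% of genes had groups that did not overlap. Every count below is to be read against these shares. The 10 stress lists held 312 measured genes, of which 110 rose (35.3%) and 32 fell (10.3%), with 74 genes whose groups did not overlap. Bright genes were called more often than dim ones, and 277 of the 312 stress genes lay above the median gene. Among all 11090 genes above it, 27.4% rose and 16.7% fell, and among those 277 stress genes 98 rose (35.4%) and 32 fell (11.6%). The median difference was 0.08 over the stress genes and -0.003 over all genes. All differences are HFD minus LFD in log2 signal ± SE from limma, group values are the lowest, the median and the highest of 6 mice, and "rose" and "fell" are used only of called genes. Regulators with a known place in a pathway, and genes that complete a short count, were named after their values were seen.

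**Figure D1:**
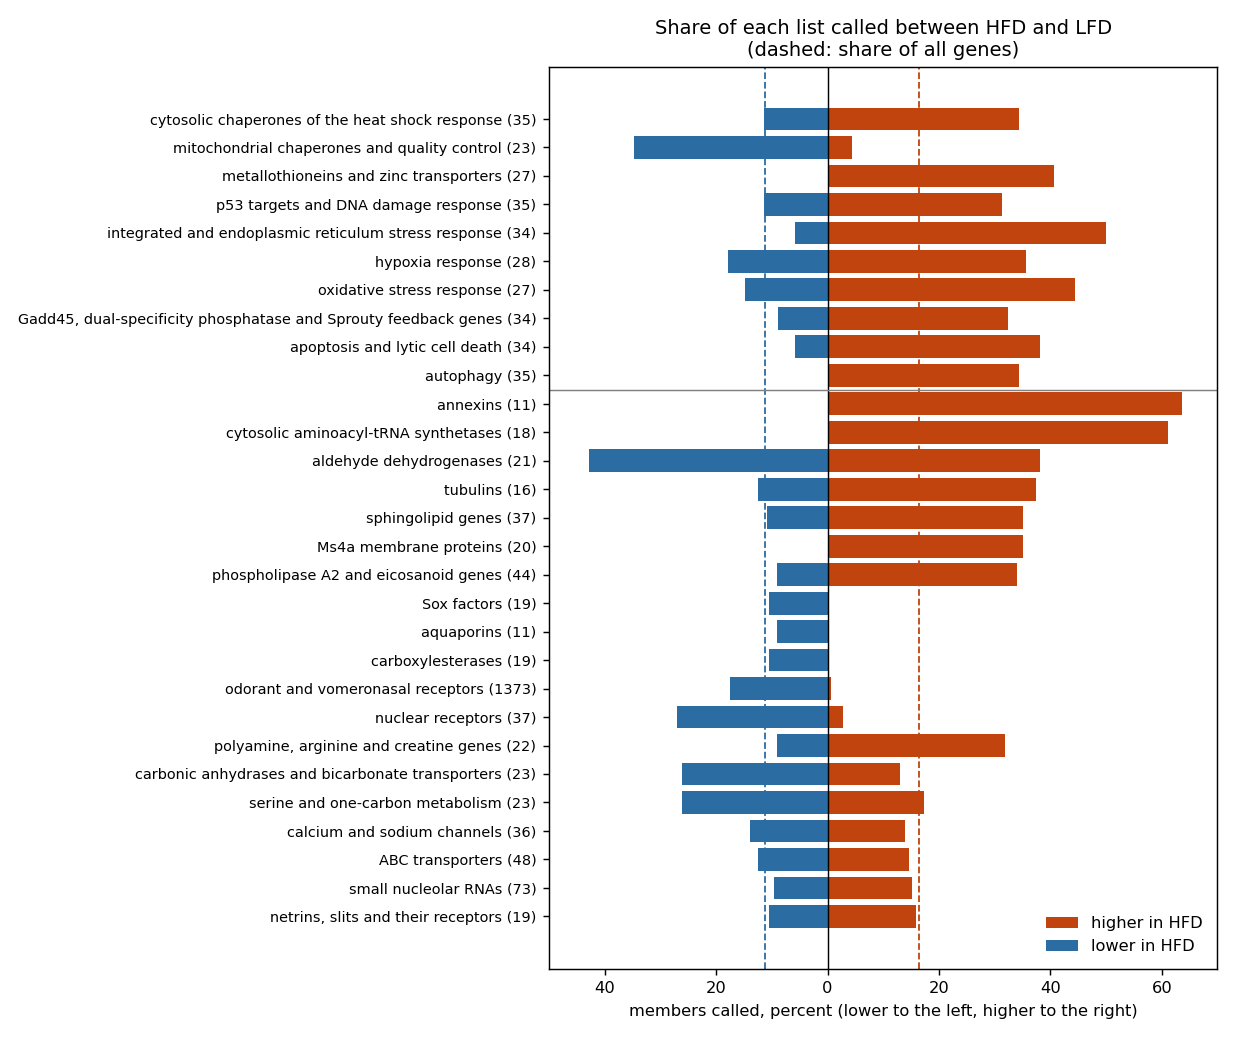
Percent of measured members called higher (right) or lower (left) in HFD than LFD mice for the 10 stress lists (above the grey line) and for 19 gene families (below it), with the number of measured members in brackets and the share of all genes, 16.5% higher and 11.3% lower, as dashed lines. The ER and integrated stress list has the longest bar to the right among the stress lists, the mitochondrial quality control list reaches 34.8% lower, and annexins reach 63.6% higher.

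Markers of cell types differed between the diets. All 9 measured macrophage markers were higher, and the mean of that list ran from 9.68 to 10.24 in LFD mice and from 10.92 to 11.45 in HFD mice. Of 8 markers of lipid-associated macrophages 6 were higher and 1 was lower, while of 9 adipocyte markers 7 were lower and 1 was higher, with list means from 12.79 to 12.93 in LFD and from 12.51 to 12.69 in HFD mice. Of 7 progenitor and fibroblast markers 3 were higher, with list means from 10.85 to 11.04 in LFD and from 11.16 to 11.38 in HFD mice. In fat tissue measured whole, fewer cells of a type and less RNA per cell cannot be told apart. The part of these marker changes in the results below was not tested. Adipocyte markers were the brightest of the 16 marker lists. None of the 6 T cell, 8 endothelial and 8 gland epithelium markers was called. LFD mouse 3 stood apart by transcripts of gland and bladder lining, with Upk1a at 12.10 against 6.54 to 6.85 in the other LFD mice and Epcam at 10.61 against 5.85 to 6.33. Its thermogenic marker mean was 10.62 and that of LFD mouse 6 was 10.10, against 7.93 to 8.92 in the other LFD mice. Skeletal muscle markers had list means of 10.14, 9.06 and 7.91 in LFD mice 2, 3 and 5 and of 8.02 in HFD mouse 6, against 6.99 to 7.10 in the other mice on these diets. Gland epithelium markers had list means of 7.46 in LFD mouse 3 and 6.81 in HFD mouse 3, against 6.04 to 6.31 in the other mice on these diets. The alternative without 4 arrays with muscle or gland transcripts leaves out LFD mice 2 and 3, HFD mouse 3 and mouse 2 of the calorie-restricted group, whose skeletal muscle mean was 8.99. It keeps LFD mouse 5 and HFD mouse 6, so it does not remove every array with muscle transcripts. Arrays correlated across genes with a median r of 0.995 within HFD, 0.990 within LFD and 0.980 between the groups.

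The ER and integrated stress list had the largest share of higher genes among the stress lists, with 17 of 34 higher, 2 lower and a median difference of 0.19. Atf3, a transcription factor induced by ATF4 and by many other stress signals, led it. Its signal was 8.50, 8.54 and 8.59 in LFD mice and 10.74, 10.95 and 11.38 in HFD mice. All 6 HFD mice stood far above every LFD mouse, a difference of 2.49 ± 0.17 (adjusted p = 1.87e-08), or 5.61-fold. Chac1, an ATF4 target that breaks down glutathione, measured 7.58, 7.77 and 7.85 in LFD mice and 8.17, 8.27 and 8.44 in HFD mice. It rose by 0.56 ± 0.07 (adjusted p = 1.02e-05), also without overlap. Sdf2l1, an ER chaperone cofactor, measured 8.93, 9.22 and 10.26 in LFD mice and 9.92, 10.07 and 10.24 in HFD mice. LFD mouse 3 alone reached the HFD values, and the gene rose by 0.72 ± 0.16 (adjusted p = 0.0023). Atf4 itself rose slightly, by 0.24 ± 0.05 (adjusted p = 0.00205), and Hspa5, which encodes the main ER chaperone BiP, rose by 0.38 ± 0.07 (adjusted p = 0.000286).

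The list did not move as one. Asns, asparagine synthetase and a classical ATF4 target, measured 11.18, 11.36 and 11.43 in LFD mice and 10.48, 10.59 and 10.74 in HFD mice. It fell by 0.72 ± 0.07 (adjusted p = 2.36e-07), with no overlap. Its promoter, like those of Atf3 and Chac1, holds a match to the ATF4 motif, in other letters and on the other strand. Xbp1, whose messenger is spliced by IRE1 into an active form, was the other gene that fell, with a difference of -0.21 ± 0.05 (adjusted p = 0.00364). The array signal does not separate the spliced from the unspliced messenger. Ddit3, which encodes the death-linked factor CHOP, was not called at 0.09 ± 0.08 (adjusted p = 0.46). Nor was Nupr1, at -0.11 ± 0.09 (adjusted p = 0.403), or Herpud1, at -0.03 ± 0.11 (adjusted p = 0.896). Trib3, an ATF4 target that dampens the response, was called at 0.36 ± 0.12 (adjusted p = 0.0292). Its LFD signal lay below every array's median, so the size is uncertain, and its difference was 0.07 with lower signals set to the array median. Its call was lost without HFD mouse 2, 5 or 6 or LFD mouse 6, at 0.33 to 0.36.

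Of the 9 genes whose printed promoter holds the ER stress element, Hspa5, Calr, Canx and Pdia6 were called higher and 5 were not called. Calr and Canx, the chaperones of newly glycosylated proteins, differed by 0.23 ± 0.05 (adjusted p = 0.00238) and 0.19 ± 0.04 (adjusted p = 0.00302). Pdia6, a disulfide isomerase, was close to the threshold at 0.27 ± 0.10 (adjusted p = 0.0478), and the call was lost without any 1 of the HFD mice or of LFD mice 1, 2, 4, 5 and 6, at 0.22 to 0.29. Hsp90b1, the ER form of HSP90, measured 11.69, 11.78 and 11.995 in LFD mice and 11.75, 11.85 and 11.93 in HFD mice and was not called. Creld2 and Dnajc3 were not called at 0.25 and 0.13, and LFD mouse 3, the mouse with gland transcripts, was the highest of all 12 for both. Without that mouse their differences were 0.42 and 0.23, with adjusted p = 0.000841 and 0.0052, and that of Pdia6 was 0.38. Ero1b and Syvn1 were not called, at 0.0015 and -0.14, though Syvn1 passed as lower without LFD mouse 2 or 6, at -0.16. The list mean shows the same mouse: it was 9.75, 9.83 and 10.04 in LFD mice and 9.97, 10.08 and 10.10 in HFD mice, and LFD mouse 3 was the one that overlapped. Without LFD mice 3 and 6, 19 genes of the list were higher and 2 lower.

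**Figure D2:**
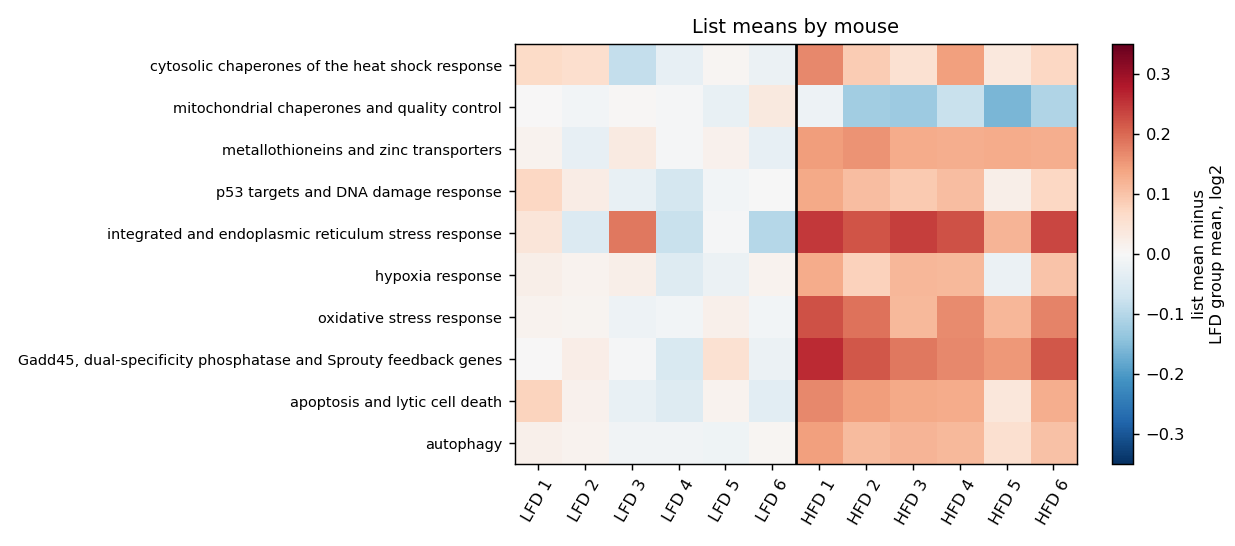
Mean log2 signal of each stress list in each mouse, less the mean of the 6 LFD mice, on a colour scale from blue (lower) to red (higher). HFD mice are red for 9 of the 10 lists, except HFD mouse 5 for hypoxia, and pale to blue for mitochondrial chaperones, LFD mouse 3 is red for ER and integrated stress, and HFD mouse 5 is the palest HFD mouse for several lists.

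Transfer RNA charging genes rose in one direction. Of 18 cytosolic aminoacyl-tRNA synthetases, which load amino acids onto transfer RNAs, 11 rose (61.1%) and none fell at the adjusted threshold in limma, with a median difference of 0.19. Nars, for asparagine, measured 10.24, 10.40 and 10.53 in LFD mice and 10.71, 10.78 and 11.004 in HFD mice. It rose by 0.44 ± 0.07 (adjusted p = 5.43e-05), without overlap. Cars, for cysteine, rose by 0.34 ± 0.05 (adjusted p = 2.54e-05) and Yars, for tyrosine, by 0.29 ± 0.05 (adjusted p = 0.000241). Iars, for isoleucine, rose by 0.26 ± 0.07 (adjusted p = 0.00577) with groups that overlapped. Of the 2 genes whose printed promoter holds the ATF4 element, Tars was called at 0.16 ± 0.05 (adjusted p = 0.0363) and Gars was not, at 0.02 ± 0.05 (adjusted p = 0.818). Iars and Yars hold a match that is not printed, so 3 of the 4 genes with a match were called higher. Tars lost the call without HFD mouse 1, 2, 4 or 6 or any 1 of the LFD mice but mouse 3, at 0.13 to 0.16.

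Serine and one-carbon metabolism, which holds further ATF4 targets, had 4 of 23 genes higher and 6 lower. The share that rose (17.4%) was near that of all genes (16.5%), and the share that fell was 26.1% against 11.3%. Mthfd2, the mitochondrial folate enzyme, measured 7.07, 7.41 and 7.47 in LFD mice and 7.81, 8.03 and 8.14 in HFD mice. It rose by 0.64 ± 0.07 (adjusted p = 2.33e-06), without overlap. Shmt2, the mitochondrial serine hydroxymethyltransferase, rose by 0.43 ± 0.04 (adjusted p = 4.19e-07), and Mthfd1l and Psat1 by 0.33 and 0.24. Phgdh, the first enzyme of serine synthesis, measured 9.06, 9.33 and 9.40 in LFD mice and 8.67, 8.86 and 9.19 in HFD mice and went the other way, at -0.43 ± 0.08 (adjusted p = 0.000572). Gldc, of the glycine cleavage system, differed by -0.50 ± 0.08 (adjusted p = 0.000112). Psat1 lost its call without HFD mouse 1 or 2 or LFD mouse 3 or 6, at 0.17 to 0.22.

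Among 27 oxidative stress genes 12 rose and 4 fell, with a median difference of 0.12. Hmox1, heme oxygenase 1, measured 9.04, 9.29 and 9.46 in LFD mice and 10.47, 10.84 and 11.11 in HFD mice. The groups were separated by about 1 log2 unit, and the gene rose by 1.57 ± 0.10 (adjusted p = 8.32e-09), or 2.98-fold. Srxn1, sulfiredoxin, which restores oxidised peroxiredoxins, measured 9.0, 9.08 and 9.13 in LFD mice and 9.65, 9.78 and 9.92 in HFD mice. It rose by 0.70 ± 0.05 (adjusted p = 3.84e-08). Both are NRF2 targets, as are Txnrd1 and Gclm, which rose by 0.36 and 0.28, and Nfe2l2, which encodes NRF2, rose by 0.27 ± 0.05 (adjusted p = 0.000423). Nqo1, another NRF2 target, was not called at 0.12 ± 0.08 (adjusted p = 0.3). Slc7a11, the cystine transporter, was called at 0.56 ± 0.09 (adjusted p = 0.00015), but its signal lay below the array medians in every HFD and LFD mouse and the difference was -0.01 with those medians as floor. Prdx4, the peroxiredoxin of the ER, rose by 0.40 ± 0.07 (adjusted p = 0.000162). The 4 genes that fell were Gpx3, Cat, Sod1 and Gclc, by differences of -0.30, -0.20, -0.18 and -0.18, that is a secreted glutathione peroxidase, catalase, cytosolic superoxide dismutase and the catalytic subunit of glutathione synthesis. The call of Gclc was lost under 6 alternatives, at -0.18 to -0.14. It was lost without HFD mouse 5, without LFD mice 3 and 6, and without the 4 arrays with muscle or gland transcripts. Centred array medians, a block for the mouse number, or a fit of only the 12 HFD and LFD arrays also lost it.

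**Figure D3:**
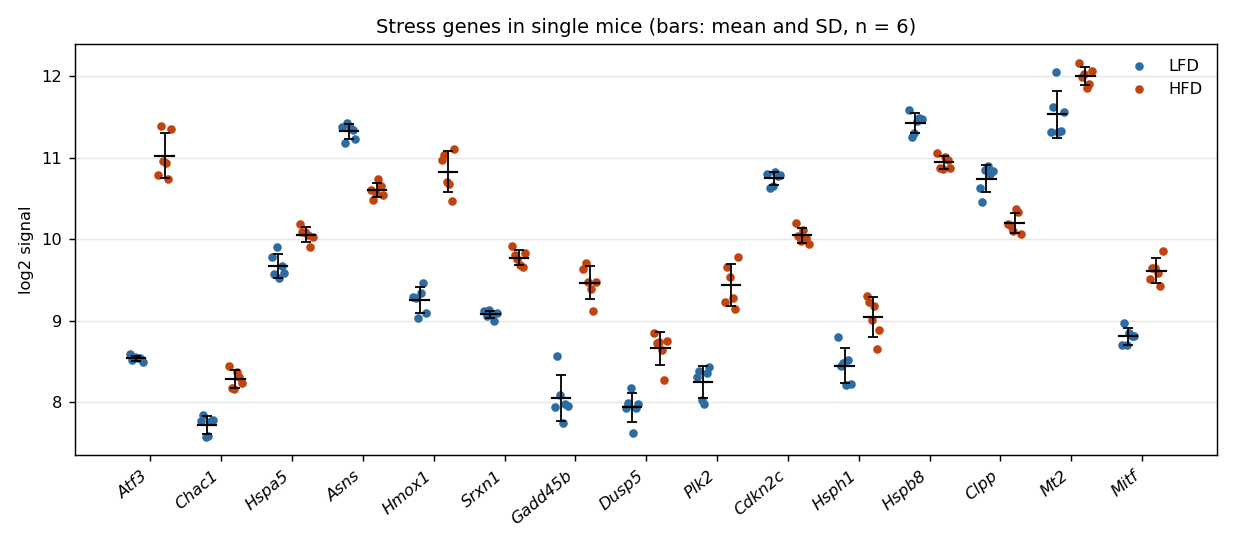
Log2 signal of 15 stress genes in each of 6 LFD mice (blue) and 6 HFD mice (orange), with the mean and SD of each group in black. Atf3 and Hmox1 show the widest gaps, Asns, Cdkn2c, Hspb8 and Clpp are lower in every HFD mouse than in any LFD mouse, and Hsph1 and Mt2 overlap.

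Feedback genes that limit stress and growth signals were called, with 11 of 34 higher and 3 lower. Gadd45b, which activates stress kinases, measured 7.74, 7.97 and 8.57 in LFD mice and 9.12, 9.48 and 9.70 in HFD mice. It rose by 1.42 ± 0.13 (adjusted p = 1.88e-07), without overlap. Dusp5, a nuclear phosphatase of ERK, rose by 0.72 ± 0.09 (adjusted p = 7.77e-06), and Dusp9, a cytosolic one, by 0.90 ± 0.11 (adjusted p = 5.5e-06). Dusp15 rose by 0.85 ± 0.11 (adjusted p = 1.01e-05), or 0.58 with the array medians as floor, since its LFD signal lay below them. Dusp1, an early-induced phosphatase of p38 and JNK, rose by 0.43. Dusp4, Dusp28 and Dusp19 fell, with differences of -0.47, -0.18 and -0.15. The call of Dusp28 was lost without HFD mouse 2, 3, 4 or 6 or LFD mouse 1, 2, 3 or 6, at -0.19 to -0.15, and the count of falls was 1 without LFD mice 3 and 6.

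Of 35 p53 targets and DNA damage genes 11 rose and 4 fell, with a median difference of 0.05. Plk2, a kinase of the p53 response, measured 7.98, 8.33 and 8.44 in LFD mice and 9.14, 9.41 and 9.79 in HFD mice. It rose by 1.19 ± 0.11 (adjusted p = 3.88e-07). Mdm2, the p53 target that degrades p53, rose by 0.42 ± 0.06 (adjusted p = 3.34e-05), and Tnfrsf10b, the receptor for the death ligand TRAIL, by 0.48 ± 0.10 (adjusted p = 0.00174). Cdkn1a, the p53 target that stops the cell cycle, was not called at 0.36 ± 0.17 (adjusted p = 0.128), though it passed when only the 12 HFD and LFD arrays were fitted (adjusted p = 0.0449), and neither was the senescence gene Cdkn2a, at 0.02 ± 0.07 (adjusted p = 0.876). Cdkn2c, an inhibitor of the kinases CDK4 and CDK6, measured 10.63, 10.78 and 10.83 in LFD mice and 9.94, 10.03 and 10.20 in HFD mice. It fell to a level below every LFD mouse, a difference of -0.70 ± 0.06 (adjusted p = 1.72e-07). Rrm2b, Mdm4 and Phlda3 were the other genes that fell, by differences of -0.30, -0.19 and -0.17. Phlda3 lost its call without any 1 HFD mouse but mouse 1, or without LFD mouse 1, 3 or 6, at -0.18 to -0.12. With only the 12 HFD and LFD arrays fitted, where Cdkn1a passed, Phlda3 lost it too (adjusted p = 0.0965).

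The hypoxia list held 10 higher and 5 lower of 28 genes, and its members moved in both directions. The falls numbered 8 after quantile normalization was applied again. Plod2, a collagen lysyl hydroxylase, measured 7.48, 7.70 and 8.29 in LFD mice and 8.31, 8.75 and 8.89 in HFD mice. It rose by 0.93 ± 0.13 (adjusted p = 2.63e-05). Ddit4, an inhibitor of mTORC1, rose by 0.83 ± 0.17 (adjusted p = 0.00101) with groups that overlapped, and Adm, the vasodilator adrenomedullin, by 0.74 ± 0.11 (adjusted p = 8.24e-05). Hif1a rose by 0.33 ± 0.06 (adjusted p = 0.000295), whereas its relative Epas1, which encodes HIF2 alpha, fell by a difference of -0.39. Vegfa, the main vessel growth factor and a standard hypoxia target, measured 10.92, 11.03 and 11.19 in LFD mice and 10.51, 10.55 and 10.66 in HFD mice. It was lower in every HFD mouse, at -0.46 ± 0.06 (adjusted p = 7.58e-06). Stc2, Pdk1 and Egln2 were also lower, at -0.49, -0.35 and -0.14. Egln2 lost its call without HFD mouse 2 or 6 or LFD mouse 3, at -0.14 to -0.13.

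Cytosolic chaperones had 12 of 35 genes higher and 4 lower, with a median difference of 0.13. Hsph1, a nucleotide exchange factor of HSP70, measured 8.21, 8.46 and 8.81 in LFD mice and 8.65, 9.10 and 9.30 in HFD mice. It rose by 0.60 ± 0.11 (adjusted p = 0.000533), with groups that overlapped. Hspa1b, an inducible HSP70, was called at 0.43 ± 0.10 (adjusted p = 0.00414) and its near-identical neighbour Hspa1a was not, at 0.30 ± 0.11 (adjusted p = 0.0639). Probes of such a pair can share signal, so the pair is uncertain. Hspb8, a small heat shock protein, measured 11.25, 11.46 and 11.58 in LFD mice and 10.87, 10.92 and 11.06 in HFD mice. It fell, by a difference of -0.48 ± 0.06 (adjusted p = 7.14e-06). Dnajb2, Hspa12b and Bag1 fell too, with differences of -0.42, -0.33 and -0.28. Hspa1a passed without LFD mouse 3, at 0.39, and Hspa12b lost its call without HFD mouse 1 or 2 or LFD mouse 2 or 6, at -0.31 to -0.25. The count of rises was 6 after quantile normalization was applied again.

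Mitochondrial chaperones and quality control genes went the opposite way, with 8 of 23 lower, 1 higher and a median difference of -0.12. Clpp, the peptidase of the matrix protease, measured 10.46, 10.82 and 10.90 in LFD mice and 10.07, 10.17 and 10.37 in HFD mice. It fell below every LFD mouse, a difference of -0.54 ± 0.08 (adjusted p = 2.76e-05). Its partner Clpx differed by -0.36 ± 0.05 (adjusted p = 1.27e-05) and the matrix chaperone Trap1 by -0.36 ± 0.05 (adjusted p = 2.73e-05). Dnaja3, Mfn2, Hspd1, Hspa9 and Opa1 were also lower, from -0.31 to -0.12. Dnaja3 was not called with probe sets averaged, at -0.10 (adjusted p = 0.161), and Hspa9 was not without LFD mice 3 and 6, at -0.12, without the 4 arrays, at -0.13, or with array medians centred, at -0.15. Opa1 lost its call without HFD mouse 2, 3 or 5 or LFD mouse 3, 4 or 6, at -0.12 to -0.11. Htra2, an intermembrane protease, was the 1 gene that rose, measuring 9.74, 9.84 and 9.92 in LFD mice and 10.07, 10.25 and 10.37 in HFD mice, a difference of 0.41 ± 0.05 (adjusted p = 1.26e-05). Adipocyte markers were lower in the same mice, as given above.

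Of 27 metallothioneins and zinc transporters 11 rose and none fell at the adjusted threshold in limma, with a median difference of 0.10. Mt2, a metal-binding protein induced by zinc, measured 11.31, 11.44 and 12.05 in LFD mice and 11.86, 12.005 and 12.16 in HFD mice. It rose by 0.47 ± 0.11 (adjusted p = 0.00295) with groups that overlapped, while Mt1 was not called at 0.09 ± 0.08 (adjusted p = 0.48). Slc39a10, Slc39a14 and Slc39a1, which carry zinc into the cytosol, rose by 0.38, 0.34 and 0.33, each without overlap.

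Autophagy genes also moved one way, with 12 of 35 higher and none lower at the adjusted threshold in limma. Mitf, a transcription factor of lysosomal and autophagy genes, measured 8.70, 8.81 and 8.97 in LFD mice and 9.42, 9.62 and 9.86 in HFD mice. It rose by 0.81 ± 0.07 (adjusted p = 1.3e-07), and its relatives Tfeb and Tfe3 rose less, by 0.24 and 0.19. Uvrag and Becn1, partners in a lipid kinase complex of autophagy, rose by 0.41 and 0.25. Atg12, a conjugation protein, rose by 0.32 and Wipi1 by 0.26. Sqstm1, a cargo receptor that NRF2 also induces, rose by 0.36 ± 0.04 (adjusted p = 2.81e-06).

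Among 34 genes of apoptosis and lytic cell death 13 rose and 2 fell. Casp4, the caspase that senses cytosolic endotoxin (caspase 11 of mice), measured 8.13, 8.36 and 8.46 in LFD mice and 8.62, 9.02 and 9.16 in HFD mice. It rose by 0.65 ± 0.09 (adjusted p = 1.52e-05). Ripk3, the kinase of necroptosis, rose by 0.55 ± 0.09 (adjusted p = 0.000103), and Apaf1, the scaffold of the apoptosome, by 0.49 ± 0.07 (adjusted p = 1.55e-05). Mcl1, which protects from apoptosis, rose by 0.50 ± 0.07 (adjusted p = 4.13e-05), whereas Bcl2, which also protects, fell by a difference of -0.29 ± 0.06 (adjusted p = 0.00131). With probe sets averaged Bcl2 was not called, at -0.15 (adjusted p = 0.0709). Dapk1 was the other gene that fell, at -0.43. HFD mouse 5 was the lowest HFD mouse for Casp4 and Mcl1, and it also had the lowest macrophage list mean of the HFD mice. The count of rises was 8 without the 4 arrays with muscle or gland transcripts.

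Of 41 gene families examined, the 15 whose share of called members lay farthest from that of all genes are described next, with the 4 nearest to it. Annexins, calcium-dependent membrane-binding proteins, stood farthest, with 7 of 11 higher (63.6%) and none lower at the adjusted threshold in limma. Anxa1, which limits leukocyte entry and promotes resolution, measured 11.23, 11.56 and 11.88 in LFD mice and 12.31, 12.46 and 12.59 in HFD mice. It rose by 0.89 ± 0.09 (adjusted p = 4.42e-07). Anxa2 rose by 0.43 ± 0.07 (adjusted p = 0.000202), Anxa4 by 0.62 and Anxa6 by 0.39, the last pair with groups that overlapped. Of 16 tubulins 6 rose and 2 fell. Tubb6, a beta tubulin, measured 8.97, 9.16 and 9.45 in LFD mice and 10.14, 10.32 and 10.40 in HFD mice, and it rose by 1.07 ± 0.09 (adjusted p = 1.47e-07). Tuba1c and Tubb2a rose by 0.90 and 0.82, while Tuba8 and Tuba1b fell, with differences of -0.48 and -0.36. The call of Tuba8 was lost without LFD mice 3 and 6, at -0.33, and that of Tuba1b without HFD mouse 2, 4 or 5 or LFD mouse 1 or 6, at -0.36 to -0.29. Tubulins of one class are close in sequence, and the array may not separate them.

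Sphingolipids are membrane lipids built on serine and palmitate, and ceramide and sphingosine 1-phosphate signal from them. Of 37 genes 13 rose and 4 fell. Sptlc3, a subunit of the first enzyme, measured 6.85, 7.04 and 7.76 in LFD mice and 8.69, 8.91 and 9.08 in HFD mice. It rose by 1.68 ± 0.14 (adjusted p = 6.37e-08). Acer3, a ceramidase of unsaturated ceramides, measured 7.73, 8.06 and 8.42 in LFD mice and 9.05, 9.41 and 9.70 in HFD mice, and it rose by 1.36 ± 0.12 (adjusted p = 1.34e-07). S1pr2, a receptor for sphingosine 1-phosphate, rose by 1.01 ± 0.10 (adjusted p = 5.17e-07) and Galc, which degrades galactosylceramide in the lysosome, by 0.87 ± 0.10 (adjusted p = 1.71e-06). The 4 that fell, Kdsr, Asah2, Smpd4 and Cers2, changed less, with differences from -0.25 to -0.17. Smpd4 lost its call without HFD mouse 2 or LFD mouse 4, 5 or 6, at -0.18 to -0.15. Cers2 was not called with probe sets averaged, at -0.05 (adjusted p = 0.525).

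Of 44 phospholipase A2 and eicosanoid genes 15 rose and 4 fell, and the prostaglandin synthases diverged. Hpgds, which makes prostaglandin D2, measured 7.69, 7.92 and 8.0 in LFD mice and 10.09, 10.35 and 10.90 in HFD mice. Every HFD mouse lay at least 2 log2 units above every LFD mouse, and the gene rose by 2.55 ± 0.18 (adjusted p = 1.87e-08). Ptges, which makes prostaglandin E2, measured 9.28, 9.86 and 10.01 in LFD mice and 8.46, 8.64 and 8.80 in HFD mice. It fell, by a difference of -1.15 ± 0.10 (adjusted p = 1.84e-07), again without overlap. Tbxas1, thromboxane synthase, rose by 1.08, and the leukotriene genes Alox5ap and Ltc4s by 0.66 and 0.59. Pla2g7, a secreted hydrolase of platelet-activating factor, rose by 1.17 ± 0.12 (adjusted p = 7.16e-07), and Pla2g5, a secreted phospholipase, by 1.2 ± 0.20 (adjusted p = 0.00019). Pla2g2d, Ptger3 and Ptges2 fell, with differences of -0.95, -0.28 and -0.23, and the falls numbered 7 with array weights. Ptges2 lost its call without LFD mice 3 and 6, at -0.17. Hpgds and Alox5ap are known to be expressed in macrophages, whose markers rose in the same mice, and their part in these rises was not tested.

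Of 22 polyamine, arginine and creatine genes 7 rose and 2 fell. Gatm, the first enzyme of creatine synthesis, measured 7.83, 8.12 and 8.33 in LFD mice and 8.84, 9.28 and 9.79 in HFD mice. It rose by 1.22 ± 0.12 (adjusted p = 3.45e-07). Slc6a8, the creatine transporter, rose by 1.17 ± 0.10 (adjusted p = 7.48e-08) and Ckb, the brain-type creatine kinase, by 1.02 ± 0.09 (adjusted p = 1.08e-07). None of the groups of these genes overlapped. Sat1, which acetylates polyamines for export, rose by 0.72 ± 0.06 (adjusted p = 8.45e-08). Nos3 and Azin2 fell, with differences of -0.36 and -0.27.

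**Figure D4:**
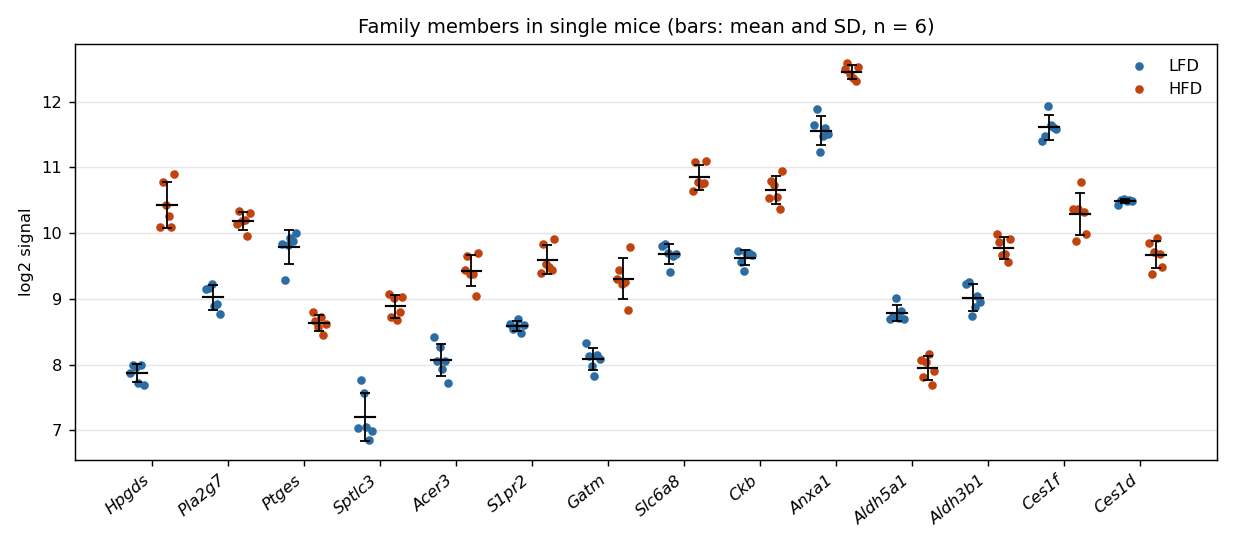
Log2 signal of 14 genes of the eicosanoid, sphingolipid, creatine, annexin, aldehyde dehydrogenase and carboxylesterase families in each of 6 LFD mice (blue) and 6 HFD mice (orange), with the mean and SD in black. Hpgds and Ptges move in opposite directions, as do Aldh3b1 and Aldh5a1, and in each case the diets do not overlap.

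Aldehyde dehydrogenases split, with 8 of 21 higher and 9 lower, so that 17 of 21 were called. The rises numbered 5 when only genes above the median level were tested, a setting in which dimmer members are left out and cannot be called. Aldh3b1, which oxidises lipid aldehydes, measured 8.74, 9.0 and 9.26 in LFD mice and 9.56, 9.77 and 9.99 in HFD mice, and it rose by 0.76 ± 0.10 (adjusted p = 1.11e-05). Aldh18a1, of proline synthesis, rose by 0.66 ± 0.12 (adjusted p = 0.00032), with LFD mouse 3 as high as HFD mice. Aldh5a1, the mitochondrial succinic semialdehyde dehydrogenase, measured 8.70, 8.73 and 9.01 in LFD mice and 7.69, 7.98 and 8.17 in HFD mice, and it fell by a difference of -0.83 ± 0.07 (adjusted p = 1.55e-07). Aldh6a1, of valine breakdown, and Aldh2, of acetaldehyde, fell by differences of -0.76 and -0.55. Carboxylesterases, which split esters and triglyceride, had 0 of 19 higher and 2 lower (10.5%, near the 11.3% of all genes). Their place among the 15 families rests on the absence of rises. In 16 of the 19 the lower group lay below every array's median, and of all genes at or below the median gene 5.59% rose. Ces1f measured 11.40, 11.60 and 11.94 in LFD mice and 9.88, 10.35 and 10.77 in HFD mice, a difference of -1.32 ± 0.13 (adjusted p = 5.39e-07). Ces1d, a lipase of adipocytes, differed by -0.81 ± 0.08 (adjusted p = 6.84e-07).

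Of 37 nuclear receptors 10 fell and 1 rose, Nr4a3, by 0.35, a call lost without the 4 arrays with muscle or gland transcripts, at 0.28. Ppara, the fatty acid sensor, measured 8.09, 8.50 and 8.94 in LFD mice and 7.75, 8.01 and 8.13 in HFD mice and fell by a difference of -0.50 ± 0.12 (adjusted p = 0.00355), with overlap. Thra, a thyroid hormone receptor, and Esr1, the estrogen receptor, fell without overlap, by differences of -0.46 ± 0.06 (adjusted p = 2.43e-05) and -0.44 ± 0.08 (adjusted p = 0.000365). Nr2f2 differed by -0.42, Pparg, the factor of fat cell formation, by -0.36 and Nr3c1, the glucocorticoid receptor, by -0.31. Sox factors had 0 of 19 higher and 2 lower (10.5%), Sox6 at -0.77 ± 0.08 (adjusted p = 9.77e-07) and Sox5 at -0.18. Aquaporins had 0 of 11 higher and 1 lower (9.09%), Aqp11 of the ER, at -0.80 ± 0.13 (adjusted p = 9.24e-05). In both families the share that fell was near that of all genes (11.3%), and their place here rests on the absence of rises. The lower group lay below every array's median in 7 Sox genes and 5 aquaporins. Carbonic anhydrases and bicarbonate transporters had 3 of 23 higher, Car6, Slc4a2 and Car12, and 6 lower, among them the mitochondrial Car5b at -0.55 ± 0.05 (adjusted p = 8.21e-08) and Car1 at -0.74. Car6 lay below the array medians in LFD mice, and its difference of 0.57 was 0.05 with those medians as floor. Car12 measured 6.57 to 7.10 in LFD mice, mostly below those medians too. The rises numbered 1 among genes above the median level, where dimmer members were not tested.

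Ms4a proteins span the membrane in immune cells, and 7 of 20 rose with none lower at the adjusted threshold in limma. Ms4a7, known from macrophages, measured 8.97, 9.10 and 9.35 in LFD mice and 10.72, 11.04 and 11.61 in HFD mice, and it rose by 1.97 ± 0.14 (adjusted p = 2.56e-08). Ms4a6d rose by 2.03 ± 0.12 (adjusted p = 5.52e-09), Ms4a14 by 1.44 and Ms4a6c by 0.82. Ms4a1, the B cell antigen CD20, was not called at -0.66 ± 0.29 (adjusted p = 0.112), and passed as lower without LFD mouse 6, at -0.90, or HFD mouse 3, at -0.83.

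Odorant and vomeronasal receptors, the receptors of smell, were the largest family and among the dimmest. Of 1373 members 242 fell (17.6%) and 8 rose (0.583%), with a median difference of -0.09. Of these genes 1344 lay at or below the median gene, where 5.9% of all genes fell. The falls numbered 156 without LFD mice 3 and 6, 160 with array medians centred and 139 after quantile normalization was applied again. A pair of neighbours in name stood apart. Olfr111 measured 5.04, 5.38 and 5.53 in LFD mice and 7.99, 8.84 and 9.95 in HFD mice, and it rose by 3.62 ± 0.36 (adjusted p = 5.71e-07), or 1.89 with the array medians as floor. Olfr110 rose by 1.69 ± 0.26 (adjusted p = 7.17e-05), or 0.34 with that floor. The members with the largest falls were Vmn1r103, at -1.48 ± 0.35 (adjusted p = 0.00376) or -0.98 with the floor, and Vmn1r94, at -1.47 ± 0.38 (adjusted p = 0.00624), both with groups that overlapped. Vomeronasal receptors of one class are close in sequence, and single members are uncertain.

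**Figure D5:**
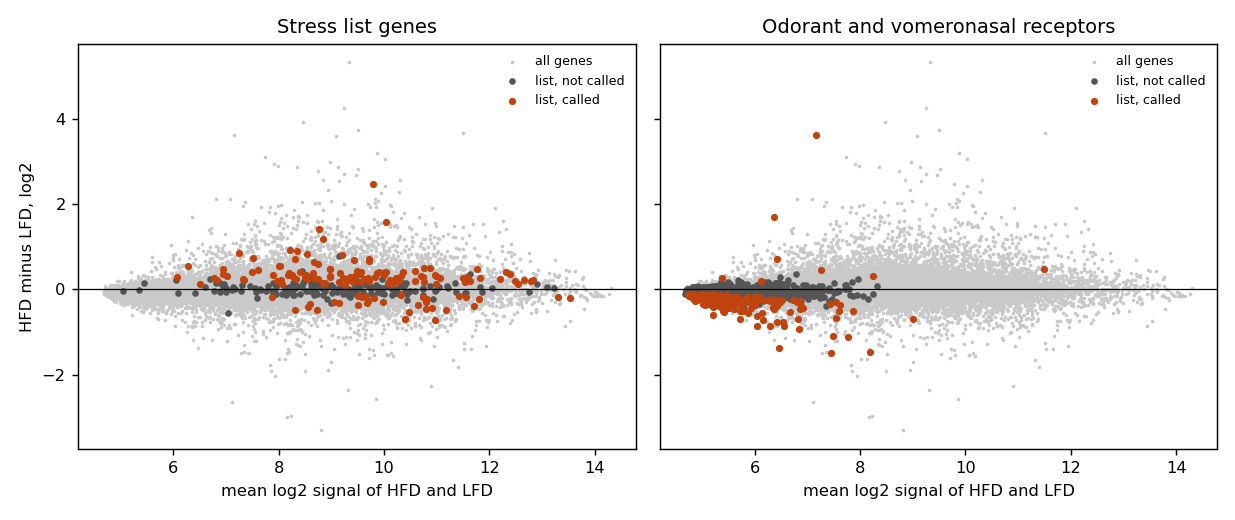
Difference between HFD and LFD mice (log2, vertical) against the mean log2 signal of the 12 mice (horizontal) for all 22180 genes (light grey), with the 312 stress genes on the left and the 1373 odorant and vomeronasal receptors on the right, called members in orange and the others in dark grey. Called stress genes lie mostly above 0 and at mid to high signal, whereas called receptors lie mostly just below 0 at low signal, with Olfr111 and Olfr110 above the rest.

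The families nearest to the share of all genes were netrins and slits, small nucleolar RNAs, ABC transporters, and calcium and sodium channels. The place of the small nucleolar RNAs rests on single arrays: 11 of 73 rose, against 21 without LFD mouse 2 and 7 without HFD mouse 3 or 6, without LFD mouse 4 or 6, or with only the 12 HFD and LFD arrays. The count of ABC transporters that fell was 6 and became 11 after quantile normalization again. The 5 channels that rose became 2 among genes above the median level, where dimmer members were not tested. Single members still moved. Abcg1, which exports cholesterol, measured 9.36, 9.54 and 10.13 in LFD mice and 10.65, 10.96 and 10.98 in HFD mice, and it rose by 1.21 ± 0.13 (adjusted p = 8.59e-07). Cacna1d, a calcium channel, rose by 0.96 ± 0.10 (adjusted p = 6.72e-07), and Scn7a, a sodium-sensing channel, fell by a difference of -0.75 ± 0.05 (adjusted p = 1e-08). Robo1 and its ligand Slit2 rose by 0.66 ± 0.07 (adjusted p = 1.41e-06) and 0.52 ± 0.09 (adjusted p = 0.000177). Snord49a and Snord49b rose by 0.52 and 0.64, with groups that overlapped.

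Differences over all genes ran from -3.31 to 5.33. The genes named next lie outside all of these lists. The usual macrophage, immune, lipogenesis and matrix genes, predicted genes and genes dim in both groups were also left out. Among the genes that remained, the 15 largest rises ran from 2.95 to 1.93 and the 15 largest falls from -1.93 to -1.21. Rnf128, a ubiquitin ligase of T cell anergy, measured 5.63, 6.10 and 8.35 in LFD mice and 8.88, 9.38 and 9.84 in HFD mice. LFD mouse 3 was the one high LFD mouse, and the rise was 2.95 ± 0.38 (adjusted p = 9.06e-06), or 2.08 with array medians as floor. Tnip3, an inhibitor of NF-kappa B signalling, rose by 2.88 ± 0.22 (adjusted p = 3.31e-08). Slc37a2, a sugar phosphate exchanger of macrophages, rose by 2.72 ± 0.18 (adjusted p = 1.2e-08). Oxtr, the oxytocin receptor, measured 6.88, 7.92 and 8.44 in LFD mice and 9.94, 10.09 and 10.38 in HFD mice, and it rose by 2.34 ± 0.21 (adjusted p = 1.34e-07). Slc5a7, the choline transporter of cholinergic nerves, measured 7.46, 9.33 and 9.97 in LFD mice and 11.20, 11.35 and 11.77 in HFD mice, and it rose by 2.29 ± 0.31 (adjusted p = 1.53e-05). Lipf, gastric lipase, rose by 2.09 ± 0.21 (adjusted p = 7.07e-07), and Nceh1, a cholesteryl ester hydrolase, by 1.93 ± 0.11 (adjusted p = 5.52e-09). Ubd, a ubiquitin-like protein induced by interferon, rose by 2.13, or 0.79 with the floor. Olr1, a receptor of oxidised lipoprotein, rose by 1.94, or 1.54 with the floor. Cdk18, Gas2l3, Arhgap25, Mrc2, Serpinb9b and Myo1f rose by 2.08, 2.04, 2.02, 2.01, 1.99 and 1.94.

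Among the falls, Tst, a mitochondrial sulfurtransferase that detoxifies cyanide, measured 10.07, 10.61 and 10.89 in LFD mice and 8.70, 8.93 and 9.0 in HFD mice. Every HFD mouse lay more than 1 log2 unit below every LFD mouse, a difference of -1.61 ± 0.12 (adjusted p = 3.75e-08). Gpd2, the mitochondrial glycerol phosphate dehydrogenase, measured 9.23, 9.62 and 10.30 in LFD mice and 8.14, 8.38 and 8.50 in HFD mice, a difference of -1.39 ± 0.14 (adjusted p = 9.44e-07). Ppp1r3c and Ppp1r3b, which target a phosphatase to glycogen, differed by -1.29 ± 0.17 (adjusted p = 1.21e-05) and -1.23 ± 0.27 (adjusted p = 0.00195). Transporters of glutamate (Slc1a3), inositol (Slc2a13) and fructose (Slc2a5) differed by -1.29, -1.28 and -1.21, the last -1.03 with the array medians as floor. Cidea, a lipid droplet protein of thermogenic fat cells, measured 8.73, 9.40 and 11.49 in LFD mice and 7.59, 8.14 and 9.0 in HFD mice, a difference of -1.71 ± 0.39 (adjusted p = 0.00286) with groups that overlapped. Of 8 thermogenic markers 3 were lower, with list means from 7.93 to 10.62 in LFD and from 7.85 to 8.52 in HFD mice. LFD mice 3 and 6 were the high ones, with Cidea at 11.49 and 11.01 against 8.73 to 9.67 in the other LFD mice. Aacs, which activates acetoacetate, differed by -1.57 ± 0.15 (adjusted p = 2.8e-07) and Reep6 by -1.40 ± 0.12 (adjusted p = 1.04e-07). Asb12 and Eci3 differed by -1.93 and -1.78, or -1.68 and -1.59 with the floor. Fam13a, Astx5 and Fcamr differed by -1.42, -1.63 and -1.31.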

How the data were processed

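The deposited values are log2 signals per probe set of 17 arrays, and RMA, limma and R 3.5.0 are named in the submitters' processing notes, with no role or order given. RMA subtracts background, makes arrays comparable and merges the probes of a set, and a dim gene keeps a signal that is mostly background. The table holds 33793 probe sets, of which 23521 have 1 symbol, 1814 several and 8458 none in the platform annotation. The probe set with the highest mean was kept for each of 22180 genes, with no filter and no rescaling. Array medians lay between 7.03 and 7.15, and where the lower group of a gene lay below them all, the difference was also taken with each array's median as floor. The number of arrays limits the precision.

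Group means were fitted by lmFit and eBayes of limma 3.58.1 (R 4.3.3) on all 17 arrays, with Benjamini-Hochberg adjustment over all genes and a threshold of 0.05. The fit was tested on simulated data. The members and the lists (10 of stress genes, 41 of families, 16 of markers) were chosen with earlier results of these data known, so counts describe the lists and no list was tested as a set. The rule for named genes took up to 4 called members per list with the largest difference (2 with the smallest p where none was called), 2 members per marker list, and the 15 largest rises and falls outside the lists and the usual macrophage, lipogenesis and matrix genes, in genes whose brighter group lay above every array's median. Predicted genes, microRNA genes, immune receptor segments, taste receptors and genes set aside for a description elsewhere were also left out of these rises and falls. Promoters are RefSeq sequences of GRCm38.p6. Alternatives left out each array in turn, 2 sets of arrays and the restricted group, used a block for the mouse number, array weights, trend and robust options, only genes above the median level, averaged probe sets, centred array medians, or quantile normalization again. Hour of harvest is not given in the sources used here.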

Additional observations from a re-analysis of the deposited data

Results flagged for a closer look

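A sample was singled out where the gap to its nearest group mate, as a share of the group's whole range, passed Dixon's critical value for 6 samples. Of 674 pairs of a named gene and a diet group, 48 had such a mouse, and chance alone gives about 1 in 20. All values are log2 signals, with the range of the other 5 mice of the group in brackets. No difference between groups in the effect of diet was examined, since there is 1 contrast.

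LFD mouse 3 carried 20 of the 48 and stood above the other LFD mice for Anxa4 10.24 (others 9.62 to 9.70), Aldh18a1 8.56 (others 7.69 to 7.92), Ephb6 9.05 (others 7.85 to 8.24), Rnf128 8.35 (others 5.63 to 6.46), Krt19 9.96 (others 7.92 to 8.54), Epcam 10.61 (others 5.85 to 6.33), Upk1a 12.10 (others 6.54 to 6.85), Pdia6 10.62 (others 9.83 to 10.11), Creld2 10.72 (others 9.48 to 9.91), Dnajc3 10.82 (others 10.05 to 10.28), Herpud1 11.11 (others 10.30 to 10.54), Nupr1 10.81 (others 10.24 to 10.36) and Sod1 13.47 (others 13.36 to 13.38). Among these are lining genes of gland and bladder (Krt19, Epcam, Upk1a) and genes of ER protein folding (Pdia6, Creld2, Dnajc3, Herpud1).

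The same mouse stood below the others for Dusp15 6.25 (others 6.85 to 7.00), Anxa2 11.99 (others 12.40 to 12.50), Klf10 9.04 (others 9.28 to 9.40), Slc16a14 5.66 (others 5.97 to 6.09), Pla2g5 7.87 (others 8.96 to 9.26), Phgdh 9.06 (others 9.32 to 9.40) and Trib3 6.09 (others 6.74 to 7.01).

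HFD mouse 5 was the lowest of its group for Dusp5 8.27 (others 8.64 to 8.84), Casp4 8.62 (others 9.0 to 9.16), Mcl1 10.92 (others 11.14 to 11.19), Plxnc1 8.98 (others 9.24 to 9.39), Zfp872 6.76 (others 7.13 to 7.32), Iars 9.79 (others 10.03 to 10.14) and Ddit3 8.72 (others 9.0 to 9.16). It also had the lowest macrophage marker mean of the HFD mice, as reported above.

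HFD mouse 3 was the highest for Epcam 7.02 (others 5.82 to 6.18) and Msmb 8.46 (others 5.30 to 5.55). HFD mouse 6 was the highest for Tnnt3 9.18 (others 7.25 to 7.70) and Tfe3 10.53 (others 10.28 to 10.36). HFD mouse 1 was the highest for Kcnj14 9.73 (others 9.28 to 9.39), Hspa9 11.47 (others 11.30 to 11.36) and Ltc4s 10.997 (others 10.72 to 10.78). It was the lowest for Piezo1 10.96 (others 11.11 to 11.19) and Cacna1c 7.54 (others 7.80 to 7.93).

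LFD mouse 6 was the lowest for Ms4a6d 7.49 (others 7.75 to 7.86), Cd79a 9.01 (others 10.37 to 11.03), Ms4a1 8.02 (others 9.11 to 9.64) and Odf1 12.99 (others 13.16 to 13.22). It was the highest for Tuba1b 9.10 (others 8.63 to 8.75). LFD mouse 1 was the highest for Shmt2 9.54 (others 9.37 to 9.42) and Tubb2a 9.75 (others 9.17 to 9.37). That mouse was the lowest for Ces1d 10.43 (others 10.48 to 10.52) and Mthfd2 7.07 (others 7.36 to 7.47). LFD mouse 2 was the highest for Snord49a 7.43 (others 6.66 to 6.93). It was the lowest for Ptges 9.28 (others 9.82 to 10.01). LFD mouse 4 was the lowest for Robo1 7.72 (others 8.05 to 8.18).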

How the results depend on the processing

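The count of genes higher and lower in HFD mice stayed within 1.5 times of 3663 and 2502 under all 22 alternatives, and so did the 110 stress genes that rose. The 32 stress genes that fell became 54 after quantile normalization was applied again, and the cause was not tested. That setting gave 3040 higher and 3300 lower genes over the whole array, so that 47.9% of called genes were higher against 59.4% in the reported fit, and centring array medians gave 64.6%. Leaving out 1 array at a time gave 3309 to 3939 higher and 2087 to 2536 lower genes. The reported fit did not pair mice by number. Same-numbered HFD and LFD mice had correlations of their deviations of -0.01, 0.03, 0.41, 0.02, 0.08 and -0.003. Correlations of differently numbered mice are not given, so whether the numbers pair the mice was not tested. With the replicate block 3058 genes were higher and 1955 lower, with 90 and 26 of the stress genes. Within lists, the block gave 7 higher chaperones in place of 12, 7 higher zinc genes in place of 11, 2 lower p53 genes in place of 4, 1 lower Gadd45, phosphatase or Sprouty gene in place of 3 and 2 lower sphingolipid genes in place of 4, and Cdkn1a passed (adjusted p = 0.0314). Of 306 named genes that were called, 272 were called under every alternative that tested them and 34 lost the call under at least 1, Dusp28 and Pdia6 under 15 each. Trib3, Pdia6, Tars, Psat1, Gclc, Opa1, Dusp28, Phlda3, Smpd4, Cldn15, Ephb6 and Mt3 lost the call when only the 12 HFD and LFD arrays were fitted. Their adjusted p in that limma fit was 0.0523 to 0.0965. Of 31 named genes not called, 11 passed under at least 1. No called difference changed sign. Of 51 list medians recomputed, 13 moved by more than 1 SD of the list's median between mice of a group under at least 1 alternative. Sizes of genes whose lower group lay below the array medians are uncertain.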
